A study of Mus musculus with 6 samples.

Results

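The genes that encode the enzymes that place and remove acetyl groups on histones were examined in the hearts of adult mice exposed to caffeine before birth. The set is a list of 31 gene symbols, drawn up by function, with earlier results of these data known. It held 18 deacetylases and 13 acetyltransferases and coactivators, of 43629 genes listed in each count file. All 31 had counts in these hearts and all 31 passed the filter on low counts, which left 13092 genes to test.

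RNA-Seq was performed on left ventricles of male CD-1 mice, an outbred stock, at 1 year of age. The dams had received either vehicle, which was saline, or 20 mg/kg caffeine by intraperitoneal injection once a day while pregnant, from E6.5 to E9.5, and the mice sequenced were their F1 offspring (n = 3 hearts per treatment). One protocol entry gives the end of exposure as E10.5 instead of E9.5. The dam and litter of each heart were not given in the labels, so p-values take the hearts as independent and measure only the spread between these hearts. The comparison asks whether expression in the adult ventricle differed after this exposure in utero. In the study's timetable, offspring of this exposure group, vehicle included, were also given dobutamine during echocardiography at younger ages, and whether the sequenced mice were among them is not given in the sources used here.

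Acetylation of lysines in histone tails loosens the hold of nucleosomes on DNA and gives reader proteins a place to bind, and it is kept in balance by acetyltransferases and deacetylases. The deacetylases fall into the zinc-dependent classes I, IIa, IIb and IV and the NAD-dependent sirtuins. The acetyltransferases include the GNAT and MYST families and the pair p300 and CBP, and the SRC proteins are coactivators of nuclear receptors that recruit them. In cardiac muscle, class IIa deacetylases are known to hold MEF2 factors in check and to leave the nucleus when stress kinases phosphorylate them, and the sirtuins of the mitochondria act on enzymes of energy metabolism.

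The promoters of Hdac5, Hdac4 and Kat2b are shown because these genes had the smallest p-values among the members that were lower after caffeine. Each stretch is the part free of annotated exons in the 250 bases upstream of a RefSeq start (GRCm38.p6), 5′ to 3′ on the gene's own strand, and capitals mark matches on either strand to 3 motifs: the GC box GGGCGG, the CCAAT box CCAAT and the core of the MEF2 site TATTTTTA. Hdac5 is on the minus strand at chr11:102230173-102230422, Hdac4 is on the minus strand at chr1:92180342-92180591, inside the longer Ensembl model of the gene, and Kat2b is on the plus strand at chr17:53566721-53566860.
Hdac5: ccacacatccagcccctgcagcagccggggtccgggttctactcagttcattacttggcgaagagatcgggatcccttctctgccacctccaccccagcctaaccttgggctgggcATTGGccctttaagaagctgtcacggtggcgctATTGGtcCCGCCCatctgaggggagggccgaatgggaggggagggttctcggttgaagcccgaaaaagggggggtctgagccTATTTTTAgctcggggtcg
Hdac4: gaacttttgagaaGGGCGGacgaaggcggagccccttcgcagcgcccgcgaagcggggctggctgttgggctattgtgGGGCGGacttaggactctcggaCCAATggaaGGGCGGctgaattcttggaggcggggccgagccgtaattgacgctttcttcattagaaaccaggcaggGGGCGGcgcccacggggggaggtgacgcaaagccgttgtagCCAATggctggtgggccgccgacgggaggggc
Kat2b: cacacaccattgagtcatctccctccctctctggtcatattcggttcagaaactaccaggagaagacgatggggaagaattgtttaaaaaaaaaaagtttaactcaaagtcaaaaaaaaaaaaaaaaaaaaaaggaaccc
RefSeq promoter windows of 300 bases, 250 before and 50 after a start, were found for 25 of the 31 members, with 35 windows in all. The MEF2 core was in 2 member windows, or 5.71%, those of the class IIa genes Hdac5 and Hdac9, and in 2.72% of 32851 windows of all genes. The GC box was in 60% of member windows and 35.7% of all windows, and CCAAT was in 40% and 37.4%. The E-box CACGTG was in 11.4% and 7.15%, and the CRE TGACGTCA was in none of the member windows and 1.79% of all windows. The 140 bases shown for Kat2b held none of these motifs, and they end 111 bases before their RefSeq start. Another RefSeq start inside the gene has its own stretch of 250 bases at chr17:53583876-53584125. That stretch is not shown, and it held none of the motifs either. The CCAAT of the Kat2b windows lay outside both stretches. These matches are descriptions of the letters and not of factor binding.

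Total counts were 9228359 to 10483101 in vehicle hearts and 7613011 to 9153997 in caffeine hearts, so every caffeine library was shallower than every vehicle library, and 3 counts equalled 0.286 to 0.394 CPM, the unit of counts scaled to a common library size. The 10 most abundant genes took 17.1% to 20.1% of the counts after vehicle and 22.6% to 25.95% after caffeine. Of the 6 cardiomyocyte markers, the ventricular light chain gene Myl2 averaged 7510 CPM after vehicle and 7449 after caffeine. The log2 fold changes of the 6 ran from -0.31 in Myh6 to 0.15 in Actc1, which was higher in every caffeine heart, and none passed the thresholds. The atrial markers Myl7, Myl4 and Sln summed to 0.84 to 2.05 CPM across the 6 hearts. Summed fibroblast markers (Col1a1, Col1a2, Pdgfra and Dcn, each with a positive fold change) were 666 to 767 CPM after vehicle and 811.5 to 955 after caffeine, and macrophage markers (Csf1r, Cd68, Adgre1 and C1qa, also each positive) were 70.1 to 109 and 88.5 to 165. Lymphocyte markers lay at 0.489 to 0.662 and 0.938 to 1.13 CPM, adipocyte markers at 0.507 to 1.86 and 0.113 to 0.469, and the cardiomyocyte, endothelial, smooth muscle and erythrocyte sums overlapped between treatments, and no marker was at 0 in all hearts. The part of these marker levels in the values below was not tested, and in whole tissue fewer cells of a type and less RNA per cell cannot be told apart.

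None of the 31 members differed between caffeine and vehicle hearts at an adjusted p under 0.05 with an absolute fold change over 1.5 (edgeR quasi-likelihood F test), where 14 of 13092 genes, or 0.107%, did so. At an unadjusted p under 0.05 there were 4 members, or 12.9%, against 8.82% of all genes. Hdac5, Hdac4 and Kat2b were lower after caffeine, where 4.4% of all genes were, and Sirt7 was higher, where 4.42% were. DESeq2 and edgeR's exact test each gave 3 members at this level, without Sirt7, and limma-voom and edgeR's likelihood ratio test each gave 4. The edgeR count was 1 without caffeine heart 1, 2 without caffeine heart 3 and 6 without caffeine heart 2, where 7.64%, 7.04% and 9.13% of all genes were at this level. In 7 members, or 22.6%, the 3 caffeine hearts lay entirely to one side of the 3 vehicle hearts, and 14.2% of all genes did so. Hdac2, Hdac4, Hdac5, Kat2b and Kat6b lay below, as 7.12% of all genes did, and Sirt7 and Hat1 lay above, as 7.11% did.

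The fold changes of the members were small. On the log2 scale they ran from -0.38 in Kat2b to 0.41 in Sirt7, with a median of -0.05 against 0.00 over all genes tested. In 19 members, or 61.3%, the log2 fold change was below 0, against 49.8% of all genes. The balance differed between the enzyme types as a description: 9 of 18 deacetylases and 10 of 13 acetyltransferases and coactivators were below 0, with medians of 0.00 and -0.14. In the 11340 genes whose mean CPM lay between those of the lowest and highest member, 48.3% were below 0 and the median was 0.01.

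**Figure D1:**
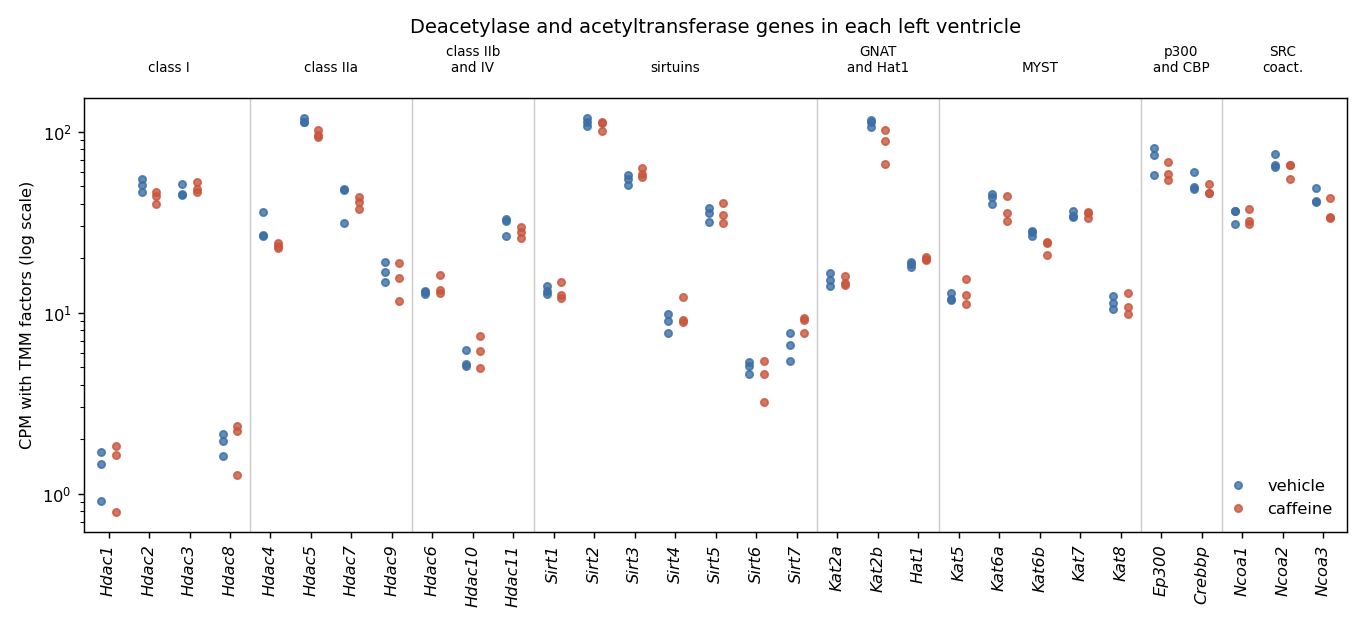
Expression of the 31 genes in each heart, in CPM with TMM factors on a log axis, grouped by enzyme class; each point is 1 heart (3 vehicle in blue, 3 caffeine in red). Hdac1 and Hdac8 sit lowest, near 1 to 2 CPM, and Hdac5, Sirt2 and Kat2b sit highest.

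The members differed widely in level. Per kilobase of all annotated exons, a scale that depends on the annotated models of each gene, Sirt2 and Kat2b stood highest. Sirt2 was at 22.5 ± 1.15 CPM per kb after vehicle and 21.5 ± 1.40 after caffeine (SD, n = 3). Kat2b was at 22.9 ± 1.05 after vehicle and 17.6 ± 3.69 after caffeine, so the 2 genes were level in vehicle hearts within their spread on this scale. Per kilobase of the longest transcript instead, Sirt2 stood at 53.4 ± 2.73 and Kat2b at 23.97 ± 1.1 in vehicle hearts, and the order of the members is that of all exons unless said otherwise. Next came Hdac5 at 13.1 ± 0.378 and 11 ± 0.519, and Hdac3 at 11.7 ± 0.925 and 12.1 ± 0.835, in vehicle and caffeine hearts. Hdac2 stood at 11.3 ± 0.929 and 9.70 ± 0.767 CPM per kb, a level that overlapped that of Hdac3 in the vehicle group. Per kilobase of the longest transcript, Hdac2 was the higher of these in vehicle hearts, at 15.6 ± 1.28 against 13.2 ± 1.05 for Hdac3. At the bottom were Hdac1 and Hdac8, at 0.395 ± 0.118 and 0.392 ± 0.0546 CPM per kb after vehicle, which did not differ beyond their spread. The sirtuins together took the largest share of the summed per-length level of the members, at 25.7% ± 0.856 after vehicle and 27.9% ± 1.78 after caffeine, followed by the GNAT genes with Hat1 at 18.6% ± 0.320 and 17.0% ± 1.91. Class I held 13.1% and 13.4%, class IIa 12.4% and 11.5%, and the MYST genes 11.1% and 11.4%. The smallest shares were those of the SRC genes at 7.69% and 7.36%, classes IIb and IV at 6.51% and 6.80%, and p300 with CBP at 4.90% and 4.57%.

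**Figure D2:**
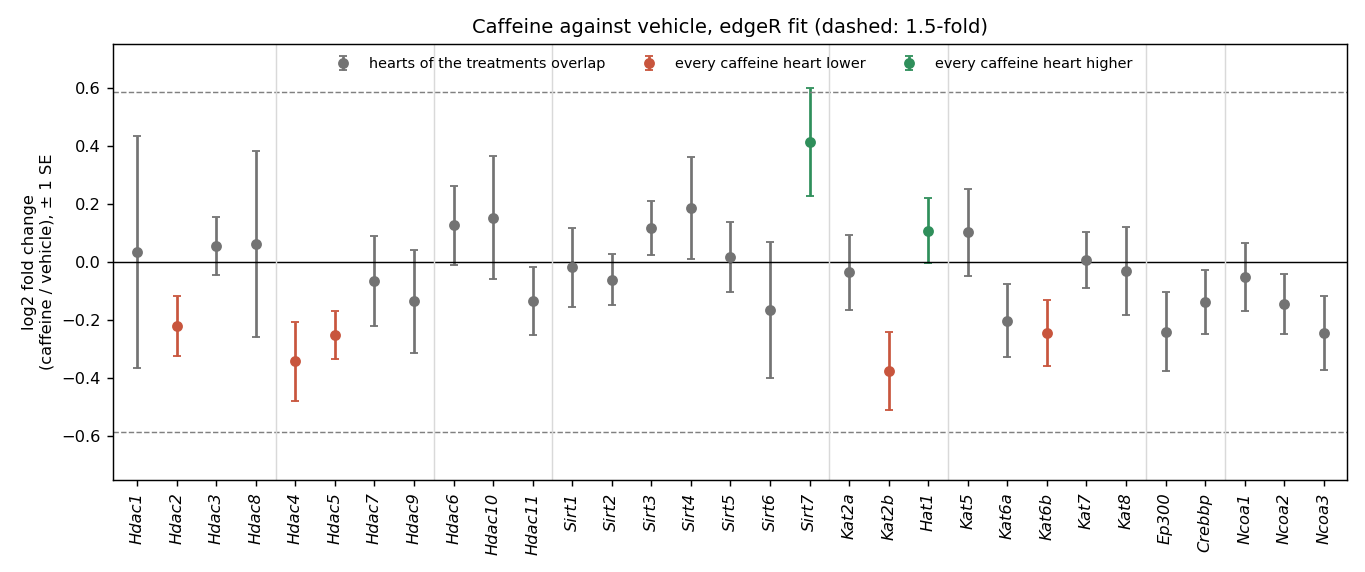
Log2 fold change of each member, caffeine over vehicle, from the edgeR fit with ± 1 SE (n = 3 hearts per treatment); red points mark genes whose caffeine hearts all lay below the vehicle hearts, green points those all above, and grey points overlap. Every estimate lies inside the dashed lines at 1.5-fold, and Kat2b at -0.38 and Sirt7 at 0.41 are the ends of the range.

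Class I deacetylases form the catalytic core of nuclear corepressor complexes. Hdac2, which works in the Sin3, NuRD and CoREST complexes (ENSMUSG00000019777, chr10:36974544-37001889), was at 54.7, 50.6 and 46.40 CPM in vehicle hearts 1 to 3 and at 39.6, 44.3 and 46.32 CPM in caffeine hearts 1 to 3. The caffeine hearts were all lower, but the nearest hearts of the 2 treatments nearly touched. Its log2 fold change was -0.22 (SE 0.10, edgeR adjusted p = 0.587). Hdac3, the enzyme of the NCoR complexes, was at 51.6, 45.3 and 44.9 CPM after vehicle and 52.9, 48.3 and 46.3 after caffeine, which overlapped (log2 fold change 0.06, SE 0.10). Hdac8, which acts outside these complexes, was at 1.95, 1.61 and 2.13 CPM after vehicle and 1.26, 2.37 and 2.23 after caffeine, with overlap and a log2 fold change of 0.06 (SE 0.32). Hdac1, the close paralog of Hdac2, had only 9 to 18 counts per vehicle heart and 7 to 14 per caffeine heart. The level of Hdac1 is uncertain, since it shares sequence with other genes, mostly with the pseudogene Gm10093. Of its exonic windows of 75 bases, the read length, 29.3% also occur in exons of other genes. This share pools the windows of all annotated transcripts, and the share in its longest transcript of 2.04 kb was not computed. Gm10093 had 55 to 63 counts after vehicle and 40 to 46 after caffeine. The log2 fold change of Hdac1 was 0.03 (SE 0.40).

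The class IIa deacetylases, the signal-responsive repressors of MEF2, had a log2 fold change below 0 in all 4 members, with a median of -0.19. Hdac5 (ENSMUSG00000008855, chr11:102194432-102230166) was at 118.7, 112.6 and 113.4 CPM after vehicle and at 101.6, 92.8 and 95.3 after caffeine. The caffeine hearts all lay below the vehicle hearts, and the gap between the groups was wider than the range within either. The log2 fold change was -0.25 (SE 0.08), with an unadjusted p of 0.0113 and an adjusted p of 0.361, the smallest of the 31 (edgeR). An exact two-sided permutation test of its log2 CPM gave p = 0.1, the smallest that 3 against 3 hearts allows. Leaving out any 1 heart kept the log2 fold change between -0.29 and -0.22. Hdac4 (ENSMUSG00000026313, chr1:91928779-92195699) was at 35.95, 26.4 and 26.9 CPM after vehicle and at 22.8, 23.4 and 24.2 after caffeine. The groups did not overlap, but vehicle heart 1 stood well above the others. The log2 fold change was -0.34 (SE 0.14, edgeR adjusted p = 0.501), and without vehicle heart 1 it was -0.18. An overlapping lincRNA on the opposite strand, Gm26720, shares 21.2% of the 75-base windows of Hdac4.

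Hdac7, which is prominent in endothelium, ran from 31.2 to 48.2 CPM after vehicle and from 37.3 to 43.3 after caffeine, and its log2 fold change was -0.07 (SE 0.16). The lowest of the class per length was Hdac9, a MEF2 repressor of muscle, at 14.75, 19.0 and 16.8 CPM after vehicle and 11.6, 15.5 and 18.8 after caffeine. Its hearts overlapped, and the log2 fold change was -0.14 (SE 0.18). Summed over the 4 genes, class IIa stood at 200.6, 206.2 and 204.6 CPM in vehicle hearts and at 176.7, 175.0 and 175.5 CPM in caffeine hearts. The caffeine sums were all lower, and the hearts within each treatment were close to each other although Hdac4 and Hdac7 varied in opposite directions in vehicle heart 1. These sums were not corrected for transcript length, and with the length correction given below Hdac5 and Hdac4 each overlapped. Hdac5 alone made up 114.9 CPM of the vehicle sum on average. Of the 8 class sums, class IIa and the GNAT genes with Hat1 separated the treatments and the other 6 overlapped, as did the sums over all 18 deacetylases (567 to 609 CPM after vehicle, 550 to 570 after caffeine) and all 13 acetyltransferases and coactivators (516.5 to 566 and 430 to 531.5). The sum over all 31 members was lower in every caffeine heart, at 1116 to 1159 CPM after vehicle and 1000 to 1081 after caffeine. Genes of high CPM weigh most in such a sum, and the median log2 fold change of the 31 was -0.05. None of the sums was corrected for transcript length. How often sums over comparable sets of other genes separate the treatments was not examined.

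**Figure D3:**
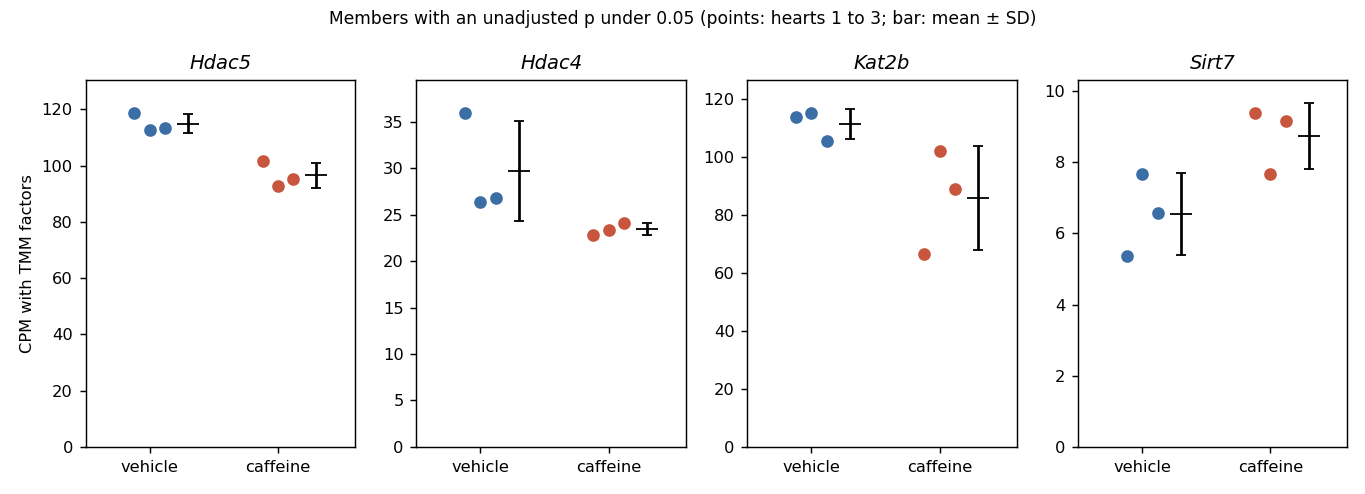
CPM in each heart (points, hearts 1 to 3 from left to right) with the mean ± SD of each treatment (bars) for the 4 members with an unadjusted p under 0.05. Axes start at 0; the 2 treatments do not overlap in any panel, and in Sirt7 the closest hearts are at 7.665 and 7.675 CPM.

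Genes of the signalling axis around class IIa enzymes (MEF2 factors, the kinases of the CaMK and PKD families and related partners) had 11 of 12 members tested. Of these, 9, or 81.8%, were below 0 on the log2 scale, against 49.8% of all genes. The median over the 11 was -0.06, and none passed the thresholds. In 3 of the 11, Mef2a, Prkd1 and Prkd3, every caffeine heart was lower, or 27.3%, against 7.12% of all genes. Among all genes with a longest transcript over 6 kb that share was 13%, and the values of this list were not corrected for transcript length. Mef2a, a partner of Hdac5 and Hdac4, averaged 203 ± 16.8 CPM after vehicle and 178 ± 5.63 after caffeine (log2 fold change -0.19, SE 0.09, edgeR adjusted p = 0.576). Prkd2, a kinase that can phosphorylate class IIa enzymes, had a log2 fold change of 0.29 (SE 0.15, edgeR adjusted p = 0.632).

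Among classes IIb and IV no gene separated the treatments. Hdac6, the tubulin deacetylase of the cytoplasm, was at 12.7 to 13.1 CPM after vehicle and 12.9 to 16.0 after caffeine, with a log2 fold change of 0.13 (SE 0.14). Hdac10, which deacetylates polyamines and was the lowest of these 3 per length, was at 5.18, 6.25 and 5.07 CPM after vehicle and 7.42, 6.10 and 4.93 after caffeine, and its log2 fold change was 0.15 (SE 0.21). Hdac11, the only class IV enzyme and the highest of the 3, was at 32.0, 32.9 and 26.6 CPM after vehicle and 29.7, 25.9 and 28.0 after caffeine, with a log2 fold change of -0.14 (SE 0.12). All 3 overlapped between treatments. Of the 75-base windows of Hdac11, 13.9% also occur in other genes, mostly in Gm44002 on the opposite strand, which was not among the genes counted.

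In the corepressor complexes in which class I enzymes act, 20 of 22 genes had a log2 fold change below 0, where 49.8% of all genes did, with a median of -0.09, and none passed the thresholds. Every caffeine heart was lower in 4 of them, Sap18, Mta1, Mta3 and Gatad2b, or 18.2%, against 7.12% of all genes. The values of this list were not corrected for transcript length either. Mta1, a scaffold of NuRD, averaged 64.2 ± 3.40 CPM after vehicle and 51.2 ± 4.42 after caffeine (log2 fold change -0.33, SE 0.10, edgeR adjusted p = 0.314).

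The 7 sirtuins, which use NAD as a cosubstrate, were divided, with 4 above 0 and 3 below and a median log2 fold change of 0.02. Sirt7 (ENSMUSG00000025138, chr11:120618372-120625240), the nucleolar sirtuin, was at 5.37, 7.665 and 6.59 CPM after vehicle and at 9.38, 7.675 and 9.15 after caffeine. Per kb of exon it was the lowest sirtuin in vehicle hearts, at 1.27 against 1.79 for Sirt6, but not in caffeine hearts, at 1.70 against 1.58. All caffeine hearts were higher, but the nearest pair was almost equal. The log2 fold change of 0.41 (SE 0.19) was the largest increase of the set, with an unadjusted p of 0.0487 and an adjusted p of 0.563 (edgeR). The unadjusted p was 0.108 with DESeq2, 0.0501 with the exact test, 0.131 with library size only, 0.0554 with no filter and 0.0736 with the replicate block. With 1 heart left out it ran from 0.0249 to 0.155. The reads behind it are few, at 55 to 81 counts per vehicle heart and 67 to 78 per caffeine heart. Sirt2, a mostly cytoplasmic deacetylase, was at 119.1, 112.6 and 107.6 CPM after vehicle and 113.3, 100.3 and 111.6 after caffeine, with overlap and a log2 fold change of -0.06 (SE 0.09).

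The mitochondrial sirtuins overlapped between the treatments. Sirt3, the main deacetylase of mitochondrial proteins, ran from 50.65 to 57.8 CPM after vehicle and from 55.9 to 62.9 after caffeine (log2 fold change 0.12, SE 0.09). Sirt4, an inhibitor of mitochondrial glutamate use, ran from 7.67 to 9.83 and from 8.91 to 12.2 CPM (0.18 on the log2 scale, SE 0.18). Sirt5, which removes succinyl groups, ran from 31.7 to 37.7 and from 31.2 to 40.3 CPM (0.02, SE 0.12). The nuclear Sirt1 and the chromatin-bound Sirt6 overlapped as well, with log2 fold changes of -0.02 (SE 0.14) and -0.17 (SE 0.23). The windows shared with other genes were 9.61% for Sirt3, whose ends overlap Ric8a and Psmd13 on the opposite strand, and 11.9% for Sirt5. Genes that supply NAD and acetyl-CoA had 13 of 14 members tested, 6 of them below 0, with a median log2 fold change of 0.04. Only Parp1 separated the treatments, with every caffeine heart lower, or 7.69%, against 7.12% of all genes. Nmrk2, a muscle kinase of the NAD salvage route, averaged 23.99 ± 0.392 CPM after vehicle and 39.2 ± 13.7 after caffeine, with overlapping hearts (log2 fold change 0.72, SE 0.21, edgeR adjusted p = 0.314). Acss1, the mitochondrial acetyl-CoA synthetase, averaged 359 ± 61.1 and 299 ± 11.7 CPM (log2 fold change -0.26, SE 0.12, edgeR adjusted p = 0.557).

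Kat2b encodes PCAF, a GNAT acetyltransferase of the SAGA and ATAC coactivator complexes, and it had the lowest log2 fold change of the 31. The study named this gene among its differentially expressed genes from the same libraries, so its direction here is not independent evidence. At the same thresholds it did not pass here, in the main fit or in any alternative. Kat2b (ENSMUSG00000000708, chr17:53566861-53672720) was at 113.7, 115.2 and 105.7 CPM after vehicle and at 66.5, 102.0 and 88.9 after caffeine. All caffeine hearts were lower, but they ranged widely, and caffeine heart 1 stood apart from the other two. The log2 fold change was -0.38 (SE 0.14), with an unadjusted p of 0.0177 and an adjusted p of 0.414 (edgeR). Without caffeine heart 1 it was -0.22, and without caffeine heart 2 it was -0.52, the lowest in any alternative. With no filter on low counts the adjusted p of Kat2b was 0.0204, the only member under 0.05 in any of the alternatives, and its fold stayed under 1.5. The pseudogene Kat2b-ps shares 3.12% of its 75-base windows, and was at 14.1, 12.7 and 13.5 CPM after vehicle and 7.98, 13.7 and 12.8 after caffeine. Caffeine heart 1 was thus the lowest for the pseudogene too.

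Kat2a, the paralog that takes the same place in SAGA and ATAC, was at 15.1, 16.6 and 13.98 CPM after vehicle and 14.1, 14.6 and 15.8 after caffeine, with overlap and a log2 fold change of -0.04 (SE 0.13). Within a heart, the log2 ratio of Kat2a to Kat2b was -2.87 ± 0.07 after vehicle and -2.51 ± 0.29 after caffeine (SD, n = 3), a difference of 0.37 with overlapping hearts (exact two-sided permutation p = 0.2, adjusted over 7 paralog pairs 0.9). The other 6 pairs, among them Ep300 to Crebbp, Kat6a to Kat6b and Hdac4 to Hdac5, gave exact permutation p-values from 0.5 to 0.9, all adjusted to 0.9. With 3 hearts per group such a test cannot go below 0.1. Hat1 (ENSMUSG00000027018, chr2:71388958-71441622), which acetylates newly made histones before they reach chromatin, was at 17.9, 18.6 and 18.9 CPM after vehicle and 19.5, 19.9 and 20.3 after caffeine. The caffeine hearts were all higher by a small margin, at a log2 fold change of 0.11 (SE 0.11, edgeR adjusted p = 0.849). Because Kat2b dominated the GNAT and Hat1 sum, that sum was 146.7, 150.3 and 138.6 CPM after vehicle and 100.1, 136.5 and 125.0 after caffeine.

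The SAGA and ATAC partners of Kat2a and Kat2b were mixed, with 8 of 14 below 0 and a median log2 fold change of -0.03. Every caffeine heart was lower in 2 of them, Atxn7l3 and Eny2, or 14.3%, against 7.12% of all genes. In 1, Taf6l, or 7.14%, every caffeine heart was higher, against 7.11% of all genes. Taf6l, a TAF-like subunit of SAGA, averaged 15.6 ± 1.56 CPM after vehicle and 20.7 ± 0.962 after caffeine, with all caffeine hearts higher (log2 fold change 0.41, SE 0.13, edgeR adjusted p = 0.324). Tada2b, the adaptor that sits beside the enzyme in SAGA, averaged 20.99 ± 3.21 and 16.3 ± 2.85 CPM with overlap (log2 fold change -0.36, SE 0.16, edgeR adjusted p = 0.564).

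The MYST acetyltransferases work in the NuA4, MOZ, HBO1 and MSL types of complex. Kat6b (ENSMUSG00000021767, chr14:21481434-21672478), a MOZ-type enzyme and the lowest of the family per length, was at 28.1, 26.5 and 28.0 CPM after vehicle and at 20.7, 24.3 and 24.5 after caffeine. All caffeine hearts were lower, with a log2 fold change of -0.25 (SE 0.11, edgeR adjusted p = 0.574). Its paralog Kat6a ran from 39.8 to 45.2 CPM after vehicle and from 31.9 to 44.0 after caffeine, with overlap and a log2 fold change of -0.20 (SE 0.13). Kat7, the HBO1 enzyme of replication origins and the highest of the family per length, was at 33.9, 36.2 and 34.3 CPM after vehicle and 33.2, 35.6 and 36.1 after caffeine, a log2 fold change of 0.01 (SE 0.10). Kat5, the enzyme of NuA4, and Kat8, the enzyme that acts on histone H4 in MSL, had overlapping hearts and log2 fold changes of 0.10 (SE 0.15) and -0.03 (SE 0.15). Of the windows of Kat5, 8.87% also lie in Rnaseh2c on the opposite strand. Among 23 partners in MYST complexes 16 were below 0, with a median of -0.09 and none past the thresholds. Every caffeine heart was lower in 2 of them, Epc1 and Ep400, or 8.7%, and higher in 1, Ing4, or 4.35%. Over all genes these shares were 7.12% and 7.11%. Epc1, a NuA4 scaffold, had a log2 fold change of -0.29 (SE 0.14, edgeR adjusted p = 0.581), and Kansl1, of the NSL complex of Kat8, had -0.24 (SE 0.12, edgeR adjusted p = 0.588).

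Ep300 and Crebbp, which encode p300 and CBP, the broadly acting acetyltransferases of enhancers, both overlapped between treatments. Ep300, the higher of the pair per length, was at 57.5, 74.4 and 81.3 CPM after vehicle and at 53.9, 68.3 and 58.1 after caffeine, with a log2 fold change of -0.24 (SE 0.14, edgeR adjusted p = 0.663). Crebbp was at 48.3, 59.7 and 49.5 CPM after vehicle and 46.1, 51.5 and 45.6 after caffeine, with a log2 fold change of -0.14 (SE 0.11). In Ep300 vehicle heart 1 was low like the caffeine hearts, so the log2 fold change ran from -0.37 without that heart to -0.13 without vehicle heart 3. The SRC coactivators overlapped too. Ncoa3, the highest of the 3 per kb of exon but below Ncoa2 per kb of the longest transcript (5.79 against 8.34 in vehicle hearts), was at 40.9, 41.3 and 48.5 CPM after vehicle and 33.6, 43.2 and 33.2 after caffeine (log2 fold change -0.25, SE 0.13). Ncoa1, the lowest, was at 30.7, 36.4 and 36.6 CPM after vehicle and 32.1, 37.1 and 30.7 after caffeine (-0.05, SE 0.12). Ncoa2 ran from 64.02 to 75.04 and from 54.7 to 65.0 CPM (-0.15, SE 0.10). Of 7 genes for readers of acetyl-lysine 4 were below 0. Only Mllt3 separated the treatments, with every caffeine heart higher, or 14.3%, against 7.11% of all genes. Mllt3, a YEATS reader, had a log2 fold change of 0.32 (SE 0.16, edgeR adjusted p = 0.624), and Brd3, a bromodomain reader, had -0.18 (SE 0.12, edgeR adjusted p = 0.706).

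The direction of the members' fold changes went with transcript length. In all 9 members whose longest transcript exceeds 6 kb (Kat6a, Kat6b, Ep300, Crebbp, Ncoa1, Ncoa2, Ncoa3, Hdac4 and Hdac9) the log2 fold change was below 0, with a median of -0.20. Long transcripts were lower over the whole table as well: 67.3% of 1859 genes over 6 kb were below 0, with a median of -0.08, against 38.6% of 3171 genes up to 2 kb, with a median of 0.06. The share without overlap differed by length class too: 13% of genes over 6 kb had every caffeine heart lower, against 4.1% of those up to 2 kb. Among the 31 members the Spearman correlation of length with log2 fold change was -0.57, and over 13045 genes it was -0.20, where all points share the same 6 libraries. The shift differed between hearts. Genes over 6 kb deviated from the mean of the vehicle hearts by a median log2 of -0.15 in caffeine heart 1, -0.01 in caffeine heart 2 and -0.06 in caffeine heart 3, and by -0.06, 0.05 and 0.01 in vehicle hearts 1 to 3. In the 9 long members the same medians were -0.37, -0.04 and -0.20 in the caffeine hearts and -0.10, 0.08 and 0.02 in the vehicle hearts.

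**Figure D4:**
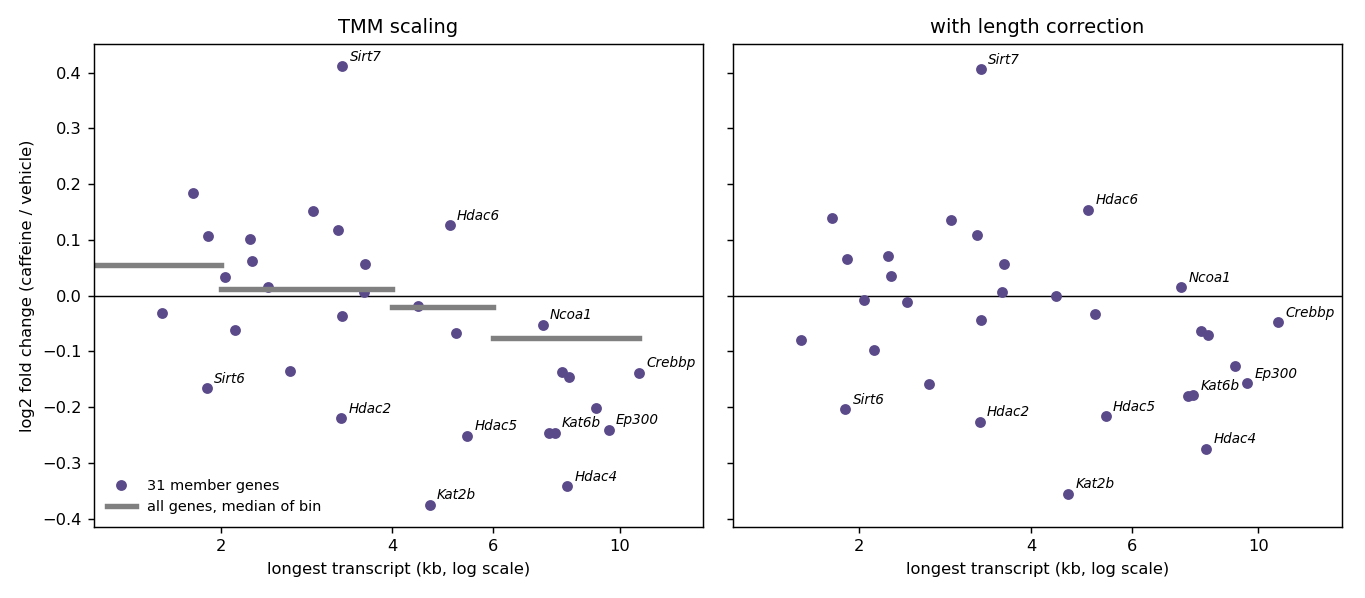
Log2 fold change (caffeine over vehicle) of the 31 members against the length of the longest transcript in kb on a log axis, with TMM scaling (left; grey bars are medians of all tested genes in 4 length bins) and after each library was adjusted for its length trend (right). The 9 members over 6 kb all lie below 0 on the left, and Kat2b and Sirt7 stay at the ends of the range on the right.

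With each library's length trend removed, a step chosen after the data were seen, 5 members separated the treatments instead of 7, where 14.3% of all genes did, and again none passed the thresholds. Hdac2, Kat2b and Sirt2 were then lower in every caffeine heart, and Sirt7 and Hdac6 were higher. Hdac4, Hdac5, Kat6b and Hat1 overlapped. Kat2b had a log2 fold change of -0.355 and Sirt7 one of 0.41, while Hdac5 stood at -0.22, Hdac4 at -0.27, Kat6b at -0.18 and Ep300 at -0.16. The median over the members was -0.04.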

How the data were processed

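Raw gene counts from 6 left ventricles (3 vehicle, 3 caffeine) were deposited by the authors. Per the paper's methods and the submitters' processing notes, single-end 75-base reads from poly(A) RNA were checked with FastQC, mapped to the mouse genome (mm10, GRCm38) with TopHat2 and counted per Ensembl gene with HTSeq. Tool versions and the strand setting of the counting were not given in the sources used here. The library kit's protocol describes no step that marks strand, so genes that overlap on opposite strands cannot be told apart. No column was pooled and no other sample's column was present.

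Counts were analysed in R 4.3.3 with edgeR 4.0.16: filterByExpr (minimum count 10, minimum total 15), TMM factors, glmQLFit and glmQLFTest of caffeine against vehicle, Benjamini-Hochberg adjustment over 13092 genes, and the thresholds of the study (adjusted p under 0.05, absolute fold change over 1.5). SE was the log2 fold change divided by the square root of F. The edgeR test used by the authors was not named. Symbols, positions and lengths came from GENCODE M21 (GRCm38), matched by Ensembl ID. The fit was tested on simulated data. Alternatives were DESeq2 1.42.0, limma-voom (limma 3.58.1), edgeR's exact, likelihood ratio and robust tests, DESeq2-type and library size scaling, no filter, 10 counts in every heart, removal of the 10 most abundant genes, a replicate block, each heart left out, and, added after the data were seen, a length correction (a lowess trend with span 0.3). Within-heart ratios used raw counts with a pseudocount of 0.5 and an exact permutation test. The common biological coefficient of variation was 12.06%. Total counts were 7613011 to 10483101 per heart. Counts of hearts within a treatment differed beyond sampling noise (chi-square per degree of freedom of at least 5.37), so no library was counted as a duplicate. Vehicle and caffeine hearts share replicate numbers in the labels, but same-numbered hearts did not deviate together (r = 0.045, -0.03 and -0.0375).

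All 31 members were named. Values of every heart were given for members whose treatments did not overlap, for those with an unadjusted p under 0.05 and for the highest and lowest of each class per length, and each partner list was described by its counts and its 2 genes of smallest p. One gene that this rule names is not reported here. The members, lists and motifs were chosen with earlier results of these data known.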

Additional observations from a re-analysis of the deposited data

How the results depend on the processing

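No member passed the thresholds under any alternative, and 18 of the 31 kept the sign of their log2 fold change in all of them. The count of all genes past the thresholds, 14, was 27 with library size scaling only, 240 with no filter, 67 with DESeq2, 94 with the exact test, 101 with the likelihood ratio test, 40 with the replicate block, and 4 (without vehicle heart 2 or caffeine heart 3) to 28 (without vehicle heart 3) with 1 heart left out. The hearts share only replicate numbers, and the block called none of the 31 members. With 1 heart left out, 7 to 11 members did not overlap (11 without vehicle heart 1 or caffeine heart 2), where 22% to 26.6% of all genes did not. The median log2 fold change of the members, -0.052, was -0.141 with library size only, where the median of all genes was -0.084, and 7 members then lay below and none above, where 14% and 3.06% of all genes did. Signs turned with library size only in Hdac1 (-0.046), Hdac3 (-0.027), Hdac8 (-0.018), Sirt5 (-0.067) and Kat7 (-0.078), with no filter in Sirt5 (-0.005) and Kat7 (-0.015), with limma-voom in Hdac1 (-0.001), and with the length correction in Hdac1 (-0.008), Sirt5 (-0.011), Sirt1 (0.000) and Ncoa1 (0.015). With 1 heart left out the log2 fold change ran for Hdac1 from -0.181 to 0.335, Hdac8 from -0.097 to 0.278, Hdac7 from -0.245 to 0.038, Hdac9 from -0.308 to 0.020, Sirt1 from -0.112 to 0.036, Sirt5 from -0.090 to 0.102, Sirt6 from -0.343 to 0.004, Kat2a from -0.094 to 0.028, Kat5 from -0.036 to 0.195, Kat7 from -0.016 to 0.041, Kat8 from -0.142 to 0.053 and Ncoa1 from -0.140 to 0.006. By longest transcript in place of all exons, the vehicle shares were 10.8% for class I, 5.72% for classes IIb and IV, 34.9% for the sirtuins, 13.7% for GNAT and Hat1 and 6.76% for SRC. The cause of these differences was not tested. Depth limits Hdac1 and Hdac8 most, at 7 to 18 and 9 to 21 counts per heart, and the windows shared with Gm10093 limit Hdac1 as well.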
